A study of Mus musculus with 12 samples.

Results

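Transcripts of 34 genes were followed that encode the machinery which ends RNA polymerase II transcripts: 23 cleavage, polyadenylation and termination factors and 11 subunits of Integrator. The genes were selected by symbol, for the known link of CDK12 loss to early polyadenylation and with earlier results of these data known, and all 34 were found among the 40077 genes of the cell table and the 34508 genes of the tumor table. The design had 4 groups of 3 libraries each. Myc-CaP is a mouse prostate carcinoma line whose founder animal carried a human MYC transgene expressed in the prostate. Cultures received DMSO, or YJ1206 (1 μM) over 24 hours. For the tumor groups, the same line was grown under the skin of male FVB mice, which received oral vehicle (PEG400, Cremophor EL and PBS) or oral YJ1206 (100 mg/kg, 3 doses per week). All 4 groups thus share the MYC transgene and 1 cell line. YJ1206 is a proteolysis-targeting chimera that directs CDK12 and CDK13 to degradation, so its direct targets are proteins.

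The 3′ end of an mRNA is made when the cleavage and polyadenylation specificity factor (CPSF) binds the hexamer AAUAAA, its nuclease subunit cuts the RNA downstream, and a poly(A) polymerase extends the cut end. Cleavage stimulation factor (CstF), cleavage factors I and II (CFI and CFII) and RBBP6 help to choose the site and to cut there. The exonuclease XRN2 then degrades the RNA still attached to the polymerase, and SCAF4 and SCAF8, which bind the polymerase tail, keep early sites from being used. Integrator cuts small nuclear RNAs and attenuates many promoter-proximal transcripts. CDK12 and CDK13 phosphorylate that same tail, and loss of CDK12 activity is known for early polyadenylation within introns of long genes.

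The signal that CPSF reads is itself present in the transcripts of many of these genes. Shown here are 6 transcripts that carry it, picked from genes that the results turn on. Each run holds 30 bases from near the 3′ end of the longest protein-coding transcript in GENCODE vM21 (GRCm38), written 5′ to 3′ in the sense of the gene, with the hexamer AATAAA in capitals.
Ints6 (chr14:62685808-62685837, minus strand): gcatgcacacacAATAAAtatgtttttaaa
Cstf2 (chrX:134086790-134086819, plus strand): ctgtcgtggattcAATAAAtattttaaaag
Cpsf2 (chr12:102006395-102006424, plus strand): tatttcgctaataAATAAAagatgctgagc
Scaf8 (chr17:3198825-3198854, plus strand): tttttagatgccAATAAAacttacttgttt
Nudt21 (chr8:94015500-94015529, minus strand): cactgttatttcAATAAAaatatttaaaac
Fip1l1 (chr5:74598752-74598781, plus strand): tttttgataatcAATAAAaatgatcttgtg
Counts of the genes Ints6, Cstf2 and Cpsf2 were lower with YJ1206 in both materials, and those of Scaf8, Nudt21 and Fip1l1 were higher in treated cells. These are values of whole genes, not of the transcripts printed. In DMSO cells the mean transcript length was 2227 nt for Nudt21, 2551 nt for Fip1l1 and 6351 nt for Ints6. The transcripts shown have 5010, 4769 and 10883 nt. AATAAA was found in the last 50 bases of the longest coding transcript in 22 of the 34 members (64.7%) and in 59.5% of 21787 protein-coding genes. With ATTAAA counted as well, the shares were 70.6% and 72.4%. Neither hexamer was found there for Wdr33, Papola and Pabpn1, whose transcript lengths are given below. These windows are parts of 3′ untranslated regions, and the match is a description of the annotation only.

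Several facts of the libraries bear on the results. The 6 cell libraries held 13936902 to 18519926 counts and the 6 tumor libraries 15391544 to 26928365. In cells, the DMSO libraries are numbered in one series and the YJ1206 libraries in another, so that a batch of libraries cannot be told apart from treatment. In each tumor group, library 3 lay between libraries 1 and 2 in 97.5% (vehicle) and 93.6% (YJ1206) of the genes for which those differed by over 2-fold, against 83.8% and 74.0% in the cell groups, and the main tumor results are therefore also given without library 3. Whether library 3 is a tumor of its own was not tested. If it is not, each tumor group holds 2 independent samples, and the tumor SDs and p-values with n = 3 are too small. Epithelial markers summed to 141 to 254 TPM over the 4 groups (transcript abundance scaled for length and to a fixed sum per library). In cells, however, 2 of the 5 had enough counts to be tested, and 1 was at 0 in every library of each cell group. Of 4 prostate luminal markers, 2 were at 0 in all cell libraries. Leukocyte, T cell and endothelial markers summed to at most 0.432 TPM in cells. Leukocyte markers summed to 119 to 412 TPM in tumors, so that tumor RNA came from several cell types. In such bulk samples fewer cells of a type and less RNA per cell cannot be told apart.

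Levels per transcript length (TPM) differed among members by over an order of magnitude. Pabpn1, the nuclear poly(A)-binding protein gene, was highest in every group, at 349 TPM in DMSO cells, 227 in YJ1206 cells, 256 in vehicle tumors and 221 in YJ1206 tumors. Papola, the main poly(A) polymerase gene, came next, at 200.5, 205, 211 and 190.3 TPM. The median member stood at 44.7 TPM in DMSO cells and 36.5 in YJ1206 cells, and at 42.5 TPM in vehicle and 35.4 in YJ1206 tumors. The lowest was Cstf2t, an intronless paralog of Cstf2, with 0, 2 and 0 counts in the DMSO libraries and 0 in each YJ1206 cell library, which is under the floor of 3 counts in every cell library. Together, members took 0.389 to 0.392% of all counts in DMSO cells, 0.360 to 0.364% in YJ1206 cells, 0.328 to 0.348% in vehicle tumors and 0.290 to 0.297% in YJ1206 tumors. Neither pair of groups overlapped in this share.

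In cultured cells, YJ1206 shifted most members, about as many up as down, so that subunits of one complex moved apart. Of 33 members tested, 29 had an adjusted p under 0.05 (edgeR's quasi-likelihood test, Benjamini-Hochberg), 15 higher and 14 lower, while 76.1% of all 11826 genes tested passed, 37.8% higher and 38.3% lower. The median log2 fold change was -0.039 over the members and -0.017 over all genes. Groups did not overlap in 29 members, 15 higher and 14 lower, and in 77.5% of all genes, 38.4% higher and 39.2% lower. A change of at least 1.5-fold was called for 7 members upward (17.7% of all genes) and 3 downward (20.3%). As shares of the members these are 21.2% and 9.09%, a smaller share of large falls than among all genes. That share hung on the cutoff: on the log2 scale Cstf3 (-0.60) was just past it, and Sympk (-0.58) and Cpsf2 (-0.56) just short. Large falls were not counted under other scalings. The shares called in either direction (45.5% higher and 42.4% lower) stood near the background. The split depended on the scaling: with libraries scaled by total counts alone 13 members were higher and 20 lower, and with log2(TPM + 1) in limma 10 were higher and 19 lower, as these scalings moved the median of all genes to -0.20 and -0.24.

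**Figure D1:**
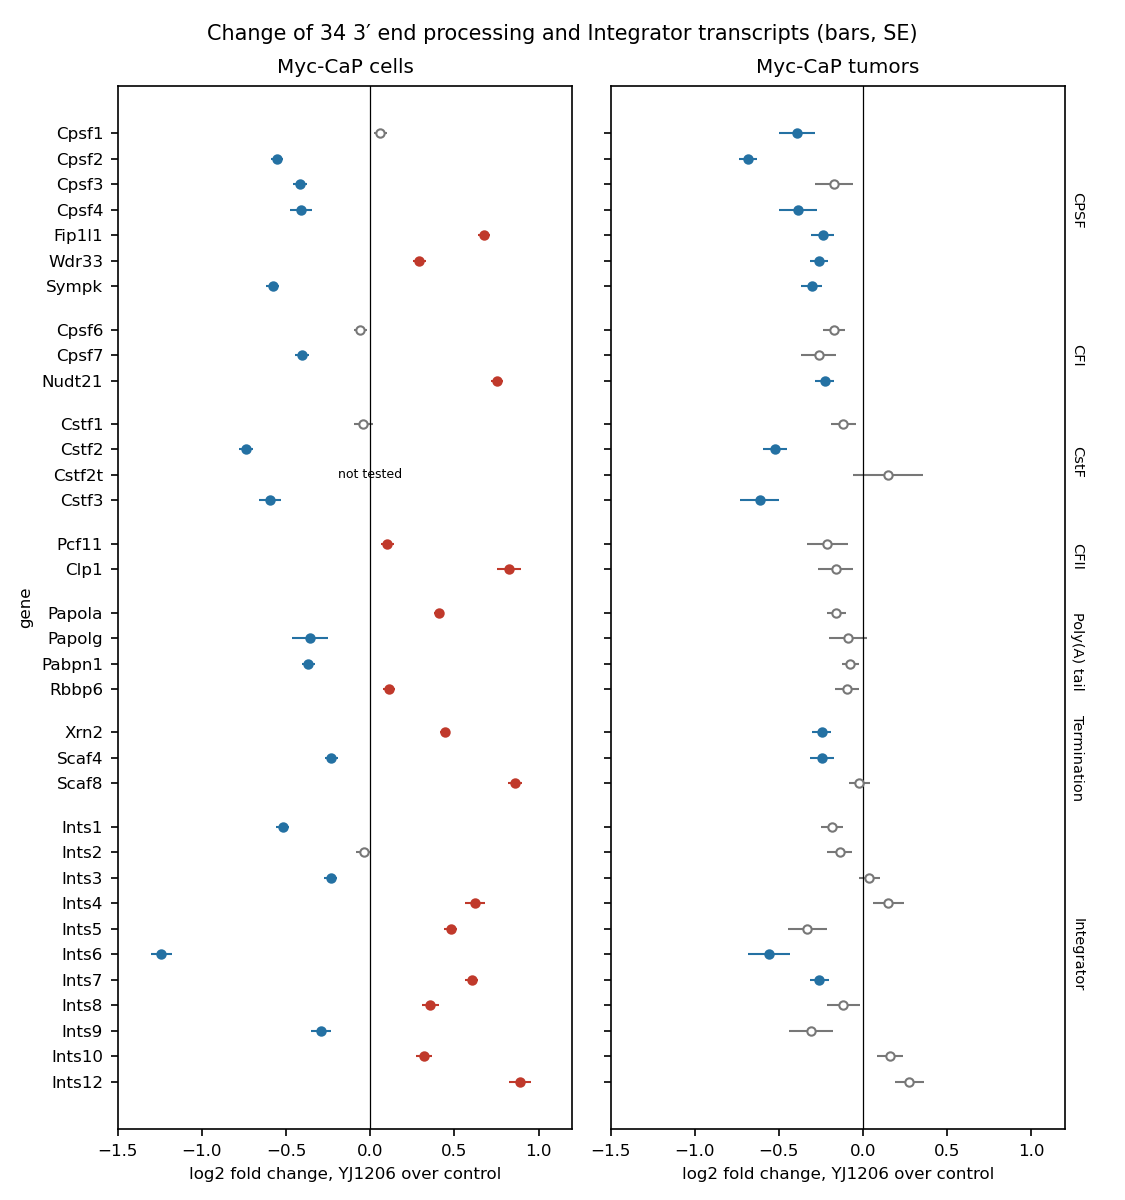
Log2 fold change (YJ1206 over control) of the members in cells (left) and tumors (right), grouped by complex, with points at the edgeR estimate and bars of 1 standard error. Filled red points were called higher, filled blue points lower and open grey points not called: cells show 15 red and 14 blue points, tumors 13 blue and no red.

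Of 7 CPSF genes in cells, 4 fell, 2 rose and Cpsf1 was not called. Sympk, the scaffold symplekin, was counted at 136, 141 and 137 CPM (counts scaled to library size, with TMM factors) in DMSO cells and at 91.6, 92.5 and 93.3 in YJ1206 cells, a log2 fold change of -0.58 (SE 0.038, adjusted p = 1.18e-13, edgeR). Cpsf2, the catalytically inactive partner of the nuclease, was at 199, 191 and 196 CPM with DMSO and 131, 136 and 132 with YJ1206 (log2 fold change -0.56, SE 0.035, adjusted p = 4.94e-14, edgeR). The highest treated library of either gene lay far under the lowest control. Cpsf3, the nuclease itself, and Cpsf4, a zinc finger subunit that contacts the hexamer, fell by 0.42 and 0.41 on the log2 scale. Fip1l1, which binds U-rich RNA and the poly(A) polymerase, went the other way, from 106, 111 and 111 CPM to 171, 176 and 177 (log2 fold change 0.68, SE 0.037, adjusted p = 2.12e-15, edgeR). Wdr33, the other subunit that contacts the hexamer, rose from 97.2, 99.7 and 96.1 CPM to 119, 120 and 120 (log2 fold change 0.29, SE 0.037, adjusted p = 7.6e-08, edgeR). Cpsf1, the largest subunit, was at 107 ± 3.49 and 112 ± 1.18 CPM (SD, n = 3 each) and was not called.

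In CstF 2 of 3 genes tested fell, and CFI had 1 gene higher and 1 lower. Cstf2, the RNA-binding subunit of CstF, was at 171, 158 and 164 CPM in DMSO cells and 95.9, 100.5 and 99.3 in YJ1206 cells (log2 fold change -0.74, SE 0.040, adjusted p = 1.73e-15, edgeR). Cstf3, the scaffold of the complex, was at 58.1, 52.7 and 48.6 CPM and then 36.6, 34.5 and 34.3 (log2 fold change -0.60, SE 0.064, adjusted p = 2.82e-09, edgeR). Cstf1 was not called, at 47.0 ± 1.96 and 45.7 ± 1.91 CPM (SD, n = 3 each). No CstF gene tested in cells was higher. In CFI, which binds UGUA elements upstream of sites, Nudt21 (the RNA-binding CFI25 subunit) rose from 131, 125 and 125 CPM to 216, 213 and 213 (log2 fold change 0.75, SE 0.035, adjusted p = 5.4e-17, edgeR). Its partner genes did not follow: Cpsf7 fell by 0.41 on the log2 scale, and Cpsf6 was not called at 210 ± 13.1 and 201 ± 3.49 CPM (SD, n = 3 each).

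Of CFII, both genes were higher, by unequal amounts. Clp1, an RNA kinase subunit, was at 23.8, 19.7 and 21.0 CPM with DMSO and 37.4, 39.8 and 37.1 with YJ1206 (log2 fold change 0.82, SE 0.073, adjusted p = 6.66e-11, edgeR). Pcf11, which binds the polymerase tail and dismantles elongation complexes, was at 98.6, 95.6 and 95.3 CPM and then 100.3, 105 and 105 (log2 fold change 0.10, SE 0.039, adjusted p = 0.0225, edgeR). The Pcf11 groups did not overlap, but its fold change was -0.16 with log2(TPM + 1) and -0.087 with total counts, so that its direction depended on the scaling, and its call was lost in 4 of 6 fits that left out 1 library. Papola rose from 396, 382 and 396 CPM to 521, 530 and 504 (log2 fold change 0.41, SE 0.027, adjusted p = 1.74e-13, edgeR), but with log2(TPM + 1) its change was 0.029 and not called. Papolg, a second nuclear poly(A) polymerase, fell by 0.36 and Pabpn1 fell by 0.37 on the log2 scale. Rbbp6, which activates the nuclease, was at 177 ± 2.52 and 191 ± 4.43 CPM (SD, n = 3 each), called higher at 0.11, against -0.21 with log2(TPM + 1).

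Of the 3 termination genes in cells, Scaf8 and Xrn2 rose and Scaf4 fell. Scaf8 was at 71.1, 74.6 and 72.8 CPM in DMSO cells and 127, 135 and 134 in YJ1206 cells (log2 fold change 0.86, SE 0.040, adjusted p = 7.2e-17, edgeR). Scaf4 was at 86.4, 87.8 and 87.2 CPM and then 73.4, 74.2 and 75.2 (log2 fold change -0.23, SE 0.041, adjusted p = 1.14e-05, edgeR). Per transcript length, Scaf4 stood at 35.4 and Scaf8 at 28.8 TPM in DMSO cells, and at 24.5 and 39.6 TPM in YJ1206 cells, so that their order turned. Xrn2 rose from 192, 191 and 189 CPM to 253, 262 and 263 (log2 fold change 0.44, SE 0.031, adjusted p = 6.16e-13, edgeR).

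Among 11 Integrator members in cells, 6 were higher, 4 lower and 1 not called. Ints6, part of the module that carries phosphatase PP2A, showed the largest change of any member, from 54.0, 51.0 and 55.7 CPM to 23.3, 22.4 and 22.2 (log2 fold change -1.24, SE 0.062, adjusted p = 3.32e-16, edgeR). Ints12, which has a PHD finger, showed the largest rise of any member, from 30.7, 32.7 and 29.2 CPM to 50.7, 59.8 and 61.1 (log2 fold change 0.89, SE 0.066, adjusted p = 1.98e-12, edgeR). Of the cleavage module, the scaffold Ints4 rose by 0.62 and the inactive partner Ints9 fell by 0.29 on the log2 scale. Ints7, of the core, rose from 113, 107 and 109 CPM to 173, 164 and 162 (log2 fold change 0.60, SE 0.038, adjusted p = 5.45e-14, edgeR). Ints5 and Ints8, the latter a contact of PP2A, rose by 0.48 and 0.36 (with log2(TPM + 1), 0.17, and 0.050 with the call lost), whereas Ints1, the largest subunit, and Ints3 fell by 0.52 and 0.23. Ints10 was called higher at 0.32, against -0.11 with log2(TPM + 1). Ints2 was not called, at 81.7 ± 3.14 and 79.5 ± 2.39 CPM (SD, n = 3 each).

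**Figure D2:**
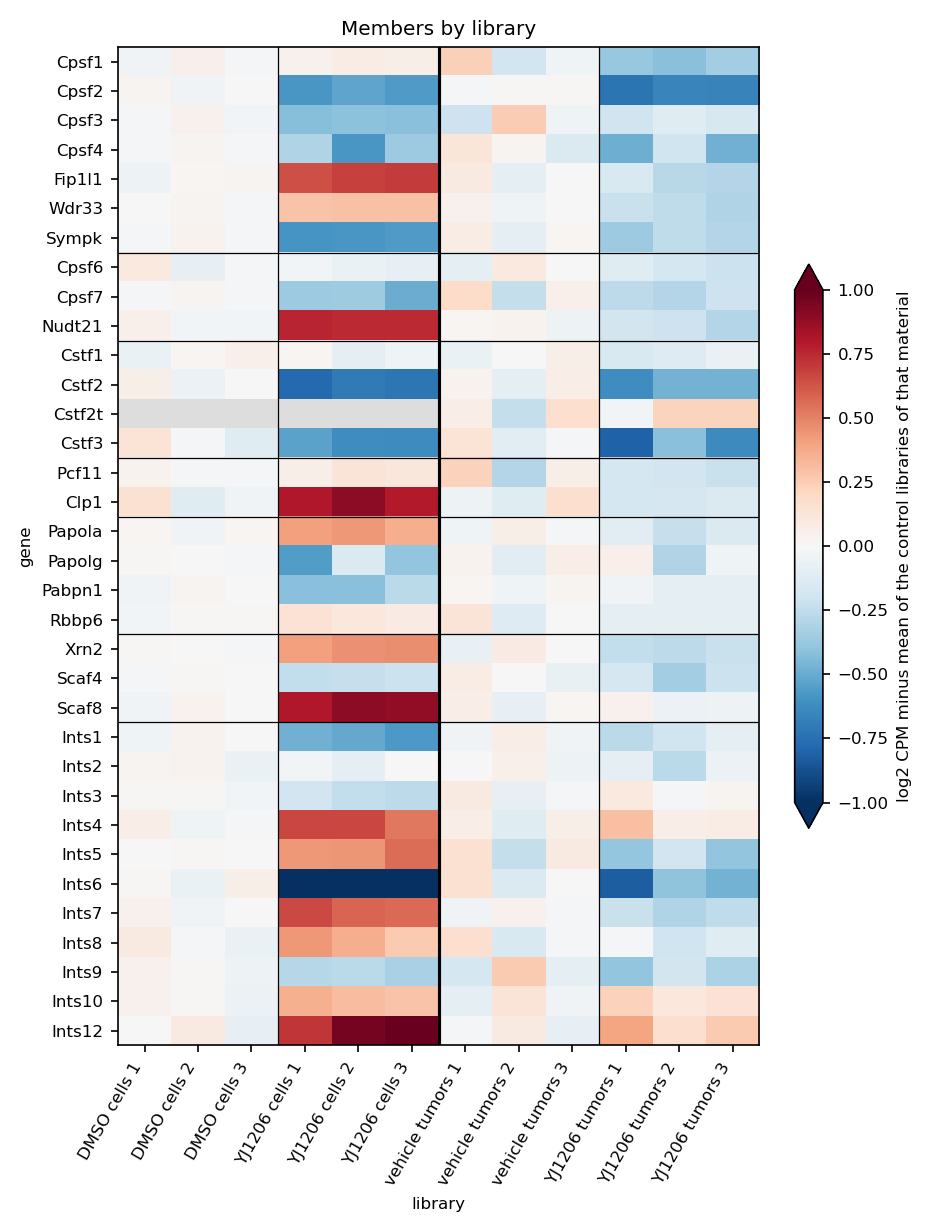
Each row is a member and each column a library, and the color gives log2 CPM minus the mean of the control libraries of the same material (red higher, blue lower, grey where a gene was under the floor, clipped at 1 and -1). Treated cell libraries resemble each other row by row, whereas the treated tumor columns are mostly pale blue.

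In tumors, none of the 34 members was called higher and 13 were called lower (edgeR). The 13 make 38.2% of the members, while 26.8% of all 15558 genes tested changed, 14.9% lower and 11.9% higher. A fall of at least 1.5-fold was called for 2 members (6.08% of all genes) and such a rise for 0 (5.5%). The median size of the change, whatever its sign, was 0.22 over the members and 0.25 over all genes on the log2 scale, against 0.41 and 0.46 in cells. The median log2 fold change was -0.20 over the members and 0.0091 over all genes. Treated and vehicle libraries did not overlap in 22 members, 20 lower and 2 higher, and in 44.6% of all genes, 22.8% lower and 21.8% higher. Among the members that fell were 6 of the 7 CPSF genes, 2 of 4 CstF genes, Nudt21 of CFI, Xrn2, Scaf4, and Ints6 and Ints7 of Integrator. Neither CFII gene and none of Papola, Papolg, Pabpn1 and Rbbp6 passed the test, and all of these had fitted changes below 0. Pcf11 was at 144, 100.4 and 128 CPM with vehicle and 109, 107 and 106 with YJ1206, with overlap.

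The largest tumor changes, those of Cpsf2, Cstf3, Ints6 and Cstf2, were of genes that had also fallen in cells. Cpsf2 was at 111, 113 and 113 CPM in vehicle and 68.0, 71.3 and 71.0 in YJ1206 tumors (log2 fold change -0.68, SE 0.052, adjusted p = 0.000718, edgeR). Cstf3 was at 59.8, 50.2 and 53.7 CPM and then 31.1, 40.7 and 35.1 (log2 fold change -0.61, SE 0.115, adjusted p = 0.00868, edgeR). Ints6 was at 91.0, 74.2 and 81.6 CPM and then 46.3, 62.1 and 59.2 (log2 fold change -0.56, SE 0.126, adjusted p = 0.0167, edgeR). No treated library of these 3 genes reached the lowest vehicle library. Cstf2 was at 114, 104 and 117 CPM and then 72.6, 80.4 and 80.2 (log2 fold change -0.52, SE 0.071, adjusted p = 0.00307, edgeR). Cpsf1 was at 127, 94.4 and 105 CPM in vehicle and 83.2, 80.7 and 85.0 in YJ1206 tumors, separate groups with a wide vehicle range (log2 fold change -0.39, SE 0.108, adjusted p = 0.0338, edgeR). Sympk, Cpsf4, Ints7, Wdr33, Xrn2, Scaf4, Fip1l1 and Nudt21 fell by 0.23 to 0.39 on the log2 scale.

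The number of tumor calls changed with the libraries used, among members and among all genes. With library 3 of both groups left out, 0 of 34 members were called by edgeR (1 gene of all was). The fitted changes moved little in that setting, to -0.69 for Cpsf2, -0.62 for Cstf3, -0.61 for Ints6 and -0.52 for Cstf2. Leaving out vehicle library 3 or YJ1206 library 3 alone left 3 members called, Cpsf2, Cstf2 and Cstf3 each time, and leaving out YJ1206 library 2 left 7. Of all genes, 12.2%, 11.8% and 17.4% were called in these fits, against 26.8% in the main fit. Without vehicle library 2, 18 members were called, 16 lower and 2 higher, and 36.2% of all genes. With all libraries, DESeq2 called 14 members lower and 1 higher (28.0% of all genes), and edgeR with total count scaling 13 lower and 1 higher (27.1%). Other measures moved with treatment in tumors: the 6 markers of dividing cells all fell, from a summed 660 to 762 TPM in vehicle to 198 to 347 TPM in YJ1206 tumors, and the 3 skeletal muscle markers tested all fell, from 15.4 to 583 TPM to 7.12 to 9.59 TPM. Summed prostate luminal markers went from 288 to 306 TPM in vehicle to 501 to 549 TPM in YJ1206 tumors (1 of 2 tested called, higher), and leukocyte markers from 119 to 336 TPM to 382 to 412 TPM (0 of 4 called). Fibroblast markers were at 219 to 722 and 158 to 357 TPM (0 of 5 called). Neutrophil markers went from 13.9 to 21.1 TPM to 4.98 to 11.4 TPM (1 of 3 called, lower). Of macrophage markers (101 to 136 and 128 to 180 TPM), endothelial markers (37.7 to 38.9 and 39.4 to 46.3 TPM) and T cell markers (2.82 to 4.73 and 4.30 to 4.74 TPM), 1 each was called, higher. Epithelial markers were at 141 to 254 and 188 to 219 TPM (0 of 4 called). The part of any of these in the members' changes was not tested. In cells, 3 of the 6 dividing-cell markers fell and 3 rose, and their sum went from 1534 to 1566 TPM to 1249 to 1279 TPM.

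The change differed between cells and tumors for 20 of 34 members by the interaction term of one fit over 12 libraries (adjusted p under 0.05, edgeR), while 46.8% of all 15423 genes tested differed. The difference was toward lower in tumors for 15 of them (26% of all genes) and toward higher for 5 (20.8%). It exceeded 1.5-fold for 9 toward lower (17.2% of all genes) and 1 toward higher (14.6%). With total count scaling the split was 10 against 9, and with log2(TPM + 1) it was 9 against 6. Of all genes that differed, 61.5% and 63.8% did so toward higher in these settings, against 44.5% in the main fit. Called in opposite directions in the 2 materials were 5 of 33 members, all higher in cells and lower in tumors, while 10.9% of all genes were called in opposite directions. The 5 are Nudt21, Fip1l1, Ints7, Xrn2 and Wdr33. Nudt21 was at 121, 123 and 116 CPM in vehicle and 106, 104 and 97.7 in YJ1206 tumors, and its log2 fold change in tumors minus that in cells was -1.01 (SE 0.062, adjusted p = 4.93e-08, edgeR). Fip1l1 was at 144, 127 and 135 CPM and then 122, 112 and 111 (difference -0.95). Ints7 was at 78.9, 83.0 and 80.1 CPM and then 69.0, 65.5 and 67.6 (difference -0.89). Xrn2 was at 139, 155 and 147 CPM and then 124, 123 and 125 (difference -0.72). Wdr33 was at 113, 107 and 110 CPM and then 94.3, 92.3 and 89.4 (difference -0.58). Without library 3 of each tumor group all 5 differences remained past the threshold. The tumor falls of these 5 genes were themselves no longer called in that setting, where 1 gene of all was. With log2(TPM + 1) the tumor fall of Wdr33 was not called (adjusted p = 0.055, limma).

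Called in the same direction in both materials were 7 of 33 members, all lower: Cpsf2, Cstf3, Ints6, Cstf2, Cpsf4, Sympk and Scaf4. Of all genes, 15.5% were called in the same direction in both. Clp1 was at 15.1, 14.3 and 17.5 CPM in vehicle and 13.8, 13.9 and 14.1 in YJ1206 tumors, not called. Scaf8, the second largest rise among members in cells, was at 127, 115 and 123 CPM in vehicle and 125, 116 and 117 in YJ1206 tumors, with overlap, and differed between materials by -0.91 on the log2 scale. Ints12 kept a fitted rise of 0.27 in tumors (adjusted p = 0.0513, edgeR), with separate groups at 35.4 to 39.9 CPM in vehicle and 42.2 to 49.3 in YJ1206 tumors. The 2 materials are tables made apart, and 142 of the 34507 shared genes, Ints9 among them, carry another identifier version in each.

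**Figure D3:**
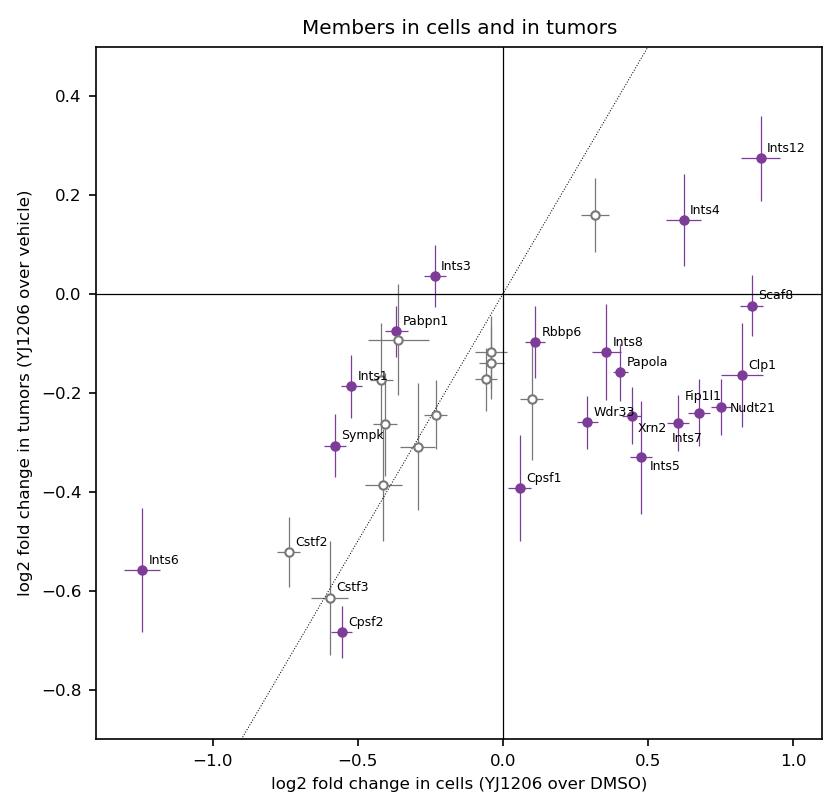
Log2 fold change in cells (x axis) against tumors (y axis) for the 33 members tested in both, with bars of 1 standard error and a dotted line of equal change. Filled purple points differed between materials, and most of them lie to the right of the line, in the field higher in cells and lower or flat in tumors.

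Ratios within a library, which no scaling of libraries can move, were compared for paralog pairs with an exact two-sided permutation test. With 3 libraries against 3 the smallest p is 0.10, and over the 9 comparisons made the adjusted value of such a p was 0.129, so none could pass 0.05. The log2 ratio of Scaf4 to Scaf8 counts differed by -1.09 between treated and DMSO cells and by -0.22 in tumors, without overlap in either. Scaf4 was at 98.4, 93.5 and 89.2 CPM in vehicle and 83.3, 73.7 and 80.6 in YJ1206 tumors. The Ints6 to Ints6l ratio differed by -0.94 in cells and by -1.19 in tumors, without overlap in either. In tumors the pair moved in opposite directions, since Ints6l, a paralog of Ints6 on another chromosome, rose from 47.6, 52.5 and 50.5 CPM to 90.6, 68.6 and 74.6 (log2 fold change 0.63, adjusted p = 0.00626, edgeR). In cells Ints6l fell by 0.30 on the log2 scale, from 30.1, 30.5 and 32.1 CPM to 24.5, 25.7 and 24.9. The Papola to Papolg ratio differed by 0.77 in cells without overlap and by -0.061 in tumors, with overlap. Papolg was at 14.0, 13.9 and 13.8 CPM in DMSO and 9.45, 12.5 and 10.5 in YJ1206 cells, and at 26.0, 23.6 and 26.5 in vehicle and 26.3, 20.5 and 24.5 in YJ1206 tumors. Papola was at 332, 357 and 340.5 CPM in vehicle and 319.6, 292 and 311 in YJ1206 tumors. The Cpsf6 to Cpsf7 ratio differed by 0.35 in cells without overlap and by 0.084 in tumors, with overlap. Cpsf7 was at 139.6, 144 and 139.8 CPM in DMSO and 109.5, 110.3 and 99.98 in YJ1206 cells, and at 128, 95.5 and 116 in vehicle and 93.7, 91.4 and 97.4 in YJ1206 tumors. Cpsf6 was at 164, 186 and 173 CPM in vehicle and 159.9, 155 and 150.0 in YJ1206 tumors, separate groups that were not called. Cstf2 to Cstf2t could be compared in tumors only, where the log2 ratio differed by -0.66 without overlap. Cstf2t itself, at 1.73 ± 0.245 and 1.91 ± 0.184 CPM (SD, n = 3 each), was not called. With tumor libraries 1 and 2 only, the tumor differences were -0.29 for Scaf4 to Scaf8, -1.28 for Ints6 to Ints6l, -0.081 for Papola to Papolg, 0.10 for Cpsf6 to Cpsf7 and -0.70 for Cstf2 to Cstf2t. Reads shared between such paralogs were assigned by the authors' estimation, so the split between near-identical stretches is uncertain.

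The deposited counts and TPM together carry the mean transcript length of a gene, weighted by abundance, and Wdr33 was the member whose length moved most. A gene's count divided by its TPM is proportional to its mean length less a constant, which was fitted in each library on 515 to 889 genes with 1 annotated transcript, and 97.9 to 98.3% of those came within 1% of their annotated length. Cpsf2 and Ints5, with 1 annotated transcript each, came out at their annotated 5732 and 3274 nt in all 4 groups. Such genes were the ones fitted, so their match does not check the readout for genes with several transcripts, such as Wdr33. Wdr33 came out at 3467, 3332 and 3622 nt in DMSO cells and at 2175, 2205 and 2213 nt in YJ1206 cells. The log2 difference of the length readout, centred on single-transcript genes, was -0.73 (SE 0.037, adjusted p = 0.00367, limma), the 68th largest of 9193 genes tested. With the replicate number as a block, which the data do not show to pair libraries, 0 of the 31 members were called for length in cells, Wdr33 included. The share of all genes called for length in that setting was not set beside this count. In tumors Wdr33 stood at 3207, 2963 and 3277 nt with vehicle and 2923, 2930 and 2810 nt with YJ1206. The tumor groups did not overlap, but the difference of -0.13 was not called (adjusted p = 0.635, limma), and it was -0.081 without library 3.

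**Figure D4:**
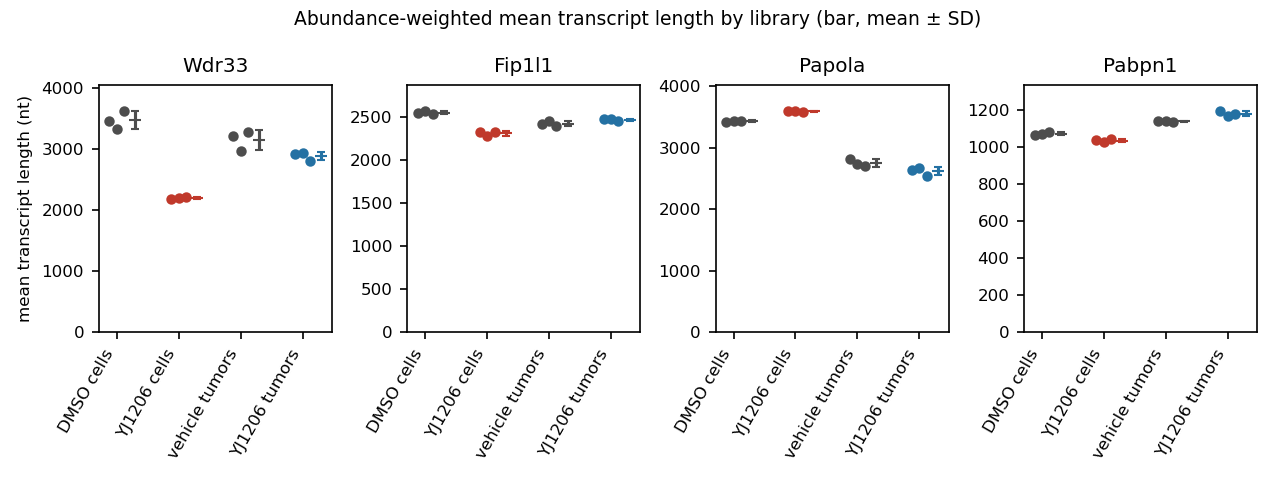
Abundance-weighted mean transcript length in nucleotides (y axis, from 0) of Wdr33, Fip1l1, Papola and Pabpn1 in each library, with the mean and SD of each group of 3 beside the points. The YJ1206 cell libraries of Wdr33 sit at 2175 to 2213 nt, under every other library.

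Several annotated Wdr33 transcripts are shorter than the full one. The full transcript has 22 exons and 4575 nt and ends 103.31 kb from the gene start, whereas 3 short coding transcripts of 1115, 1415 and 2416 nt share its first exons and end 31.33 to 37.85 kb from the start. The 2416-nt transcript reads on through the intron after the sixth exon and ends within the seventh, and the others splice from the seventh exon to a terminal exon of their own inside the long intron that follows. Retained-intron transcripts of 1756, 3683 and 608 nt are also annotated. The 3683-nt transcript is longer than the mean of every group, so more of it would not lower the mean. More of the 1756-nt or the 608-nt transcript would lower it as well, so that the length readout does not tell which transcripts changed. The deposited table gives no value for single transcripts, but the mean length sets bounds. If all other Wdr33 RNA had the shortest annotated length, 608 nt, the full transcript could be at most 72.2 ± 3.65% of Wdr33 molecules in DMSO cells and 40.1 ± 0.511% in YJ1206 cells (SD, n = 3 each). On the TPM scale the full transcript was then at most 35.7 ± 0.322 and 32.5 ± 0.197 TPM, and all others at least 13.8 ± 2.61 and 48.6 ± 1.22 TPM. Wdr33 as a whole went from 49.5 ± 2.88 to 81.1 ± 1.36 TPM, a larger rise than its counts gave. In tumors the bound on the full transcript was 64.1 ± 4.16% with vehicle and 57.5 ± 1.71% with YJ1206, and others were at least 21.2 ± 2.79 and 21.8 ± 1.06 TPM. These bounds rest on the annotated transcripts and on the authors' assignment of reads to them.

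**Figure D5:**
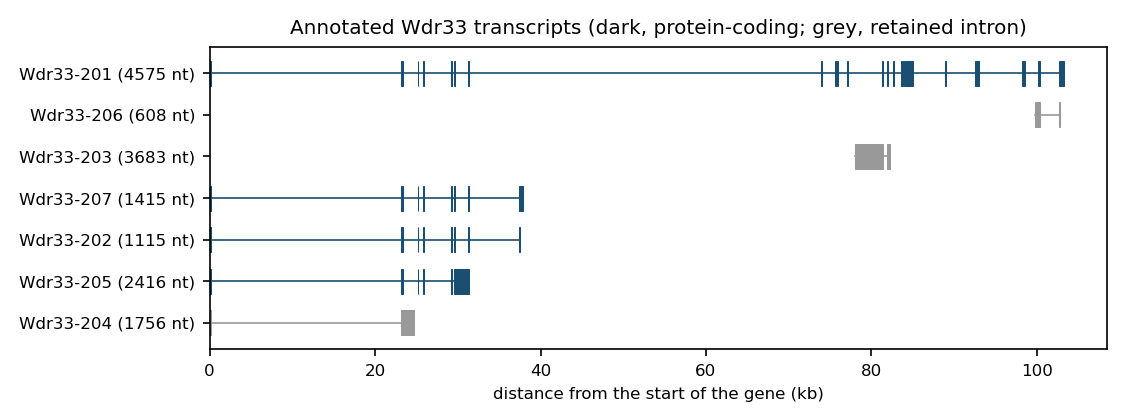
Annotated Wdr33 transcripts drawn to scale by distance from the gene start in kb, exons as boxes and introns as lines, dark for protein-coding and grey for retained-intron transcripts. The coding transcripts of 1115, 1415 and 2416 nt end before 38 kb, and the full one at 103.31 kb.

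Of the 31 members with at least 2 annotated transcripts, the length readout was called for 3 in cells, and for 4.94% of all genes. Of these, 2 were shorter (3.42% of all genes) and 1 longer (1.52%), and 9 had an unadjusted p under 0.05 (22.8%). Besides Wdr33 they were Fip1l1, shorter at 2545, 2571 and 2536 nt with DMSO and 2330, 2278 and 2328 nt with YJ1206 (log2 difference -0.16, SE 0.013, adjusted p = 0.00852, limma), and Papola, longer at 3424, 3443 and 3443 nt and then 3599, 3597 and 3589 nt (0.067, SE 0.0044, adjusted p = 0.00577, limma). In tumors none of the 31 was called by limma and 0 of all genes were, with 4 members at an unadjusted p under 0.05 (7.47% of all genes). The change in length differed between materials for 4 members (4.56% of all genes), 3 toward longer in tumors (2.91%) and 1 toward shorter (1.65%), with 7 at an unadjusted p under 0.05 (19.6%). It differed by 0.59 for Wdr33, 0.19 for Fip1l1, -0.15 for Papola and 0.12 for Pabpn1 (tumors minus cells, log2). Ints2 was shorter in every treated cell library, at 3768 to 4185 nt against 4700 to 5018 nt, without passing the test (adjusted p = 0.0733, limma). Pcf11 was at 5067 nt in DMSO and 4927 nt in YJ1206 cells on average and was not called either (adjusted p = 0.0894, limma).

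Gene span, the genomic distance from start to end, was set beside the changes as a description. Across the 33 members in cells, Spearman's rho between span and log2 fold change was 0.030, and -0.049 across all genes with a span. Across the 34 members in tumors it was -0.11, and -0.037 across all genes. Genes share libraries and are not independent replicates. Members spanned 4.23 kb (Cstf2t) to 103.308 kb (Wdr33), and 19 of the 33 in cells spanned 30 to 100 kb, 9 of them higher and 8 lower, while 38.8% of all 3369 genes of that span were higher and 41.1% lower. Exons of many members overlap those of other genes, and only some are listed here. Those of Fip1l1, Ints8, Cstf2, Ints6 and Ints12 overlap genes on the opposite strand (Lnx1, Ccne2, Nox1, Serpine3 and Gstcd). Those of Pabpn1, Ints5 and Scaf8 (114 bases, with Gm49797) overlap another gene on the same strand. Reads there could belong to either gene, as the use of strand in counting is not given in the sources used here.

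Partners of these complexes outside the 34 moved in both directions in cells, where 37.8% of all genes were higher and 38.3% lower, and in tumors 11.9% and 14.9%. Of 9 tested Integrator and PP2A partners, 5 rose and 4 fell in cells, and 1 rose in tumors, which was Ints6l. Ints13 rose most, from 53.2, 51.7 and 53.1 CPM to 131, 131 and 137 (log2 fold change 1.33, adjusted p = 4.96e-21, edgeR), and was not called in tumors. Nabp1, a single-strand DNA-binding partner, fell by 0.31 in cells, where its groups, at 9.39, 8.52 and 8.16 CPM and 8.52, 6.94 and 5.46, overlapped; its call was lost in 4 of 6 fits that left out 1 library. Of 15 termination factors and regulators of the polymerase tail, 9 rose and 6 fell in cells, and 4 fell in tumors. Ssu72, a phosphatase of the tail that works with CPSF and symplekin, fell from 43.3, 46.9 and 44.2 CPM to 16.1, 13.5 and 14.7 in cells (log2 fold change -1.60, adjusted p = 5.88e-17, edgeR) and by 0.44 in tumors. Ctr9, of the PAF1 elongation complex, rose from 237, 237 and 234 CPM to 455, 465 and 464 in cells and had a fitted 0.28 in tumors, not called. The 3 U1 snRNP protein genes, whose particle protects transcripts from early polyadenylation, were called higher in cells, led by Snrpc at 0.51, but with log2(TPM + 1) Snrpc lost its call (0.15) and Snrnp70 and Snrpa turned negative. Snrpc was at 59.0, 53.5 and 58.8 CPM in DMSO and 79.0, 75.4 and 90.4 in YJ1206 cells. In tumors Snrpc fell by 0.28. With tumor libraries 1 and 2 only, the tumor calls of Ints6l, Ssu72 and Snrpc were lost, at fitted changes of 0.67, -0.54 and -0.30. These lists were written with earlier results of the data known.

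The transcripts of the degraded kinases were checked last. Cdk12 was at 119, 121 and 125 CPM in DMSO and 185, 182 and 180 in YJ1206 cells, and at 147, 157 and 144 in vehicle and 206, 179 and 186 in YJ1206 tumors, called higher in both, though without library 3 the tumor change of 0.34 was not called. Cdk13 was not called by edgeR in either material, at 91.0 ± 2.86 and 92.7 ± 0.919 CPM in cells and 123 ± 4.57 and 128 ± 5.59 in tumors (SD, n = 3 each). Ccnk, the cyclin of both, rose from 84.7, 82.6 and 81.9 CPM to 109.7, 112 and 111 in cells, and was at 59.6, 64.1 and 58.4 CPM in vehicle and 57.3, 55.0 and 56.7 in YJ1206 tumors, not called. A degrader acts on the proteins, so these values do not check the treatment.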

How the data were processed

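RNA sequencing of 12 mouse libraries, 3 in each of 4 groups, was analysed. Libraries were made after ribosomal RNA removal per the methods of the study, whereas the labels name polyA RNA for cells and total RNA for tumors. Groups came from the labels, and all data derive from separate biological replicates according to the study. Per the labels, the authors estimated abundances with kallisto (version and annotation not given in the sources used here; builds GRCm38 and mm10) and deposited estimated counts per gene, not scaled between libraries, and TPM, which the authors scaled for transcript length and to a fixed sum per library. Tables of cells and tumors were made separately.

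Since the tables held estimated and not whole counts, values were rounded before the planned count tests. The cell and tumor experiments were each fitted alone in R 4.3.3, with filterByExpr, TMM factors and the quasi-likelihood functions of edgeR 4.0.16, Benjamini-Hochberg adjustment over all genes and a threshold of 0.05. The difference between materials was the interaction term over 12 libraries, with genes matched on identifiers without versions. Alternatives were DESeq2 1.42.0, total-count scaling, limma 3.58.1 with trend on log2(TPM + 1) and log2(TPM + 0.1), no filter, a replicate block, each library left out, and tumor libraries 1 and 2 only. Changes in TPM are on the log2(TPM + 1) scale, which understates changes of low genes. The mean transcript length readout, with at least 20 counts in every library, and the poly(A) windows were chosen after seeing the data. Transcripts, lengths and sequences came from GENCODE vM21. Every pair of libraries in a group differed by more than sampling noise (chi-square per gene 1.94 to 49.7). The floor was 3 counts per library, 0.111 to 0.215 CPM, and covers counting error only. The edgeR fits, limma on TPM and the interaction term were tested on simulated counts, and the limma fit of the length readout on simulated normal values. The other steps were not simulated. The members and lists were chosen with earlier results of these data known. Library values are given for the 5 largest changes in each direction and material, genes called in opposite directions, paralog pairs, Pcf11 and the kinases, and per other list the largest change in each direction; genes outside this rule, such as Ints2, Snrnp70 and Snrpa, were chosen after their values were seen.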

Additional observations from a re-analysis of the deposited data

Results flagged for a closer look

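The YJ1206 effect differed between tumors and cells for 20 members by the interaction term (edgeR, adjusted p under 0.05), and each difference is given as the log2 fold change in tumors minus that in cells. It was -1.02 for Clp1, -1.01 for Nudt21, -0.95 for Fip1l1, -0.91 for Scaf8, -0.89 for Ints7, -0.84 for Ints5, -0.72 for Xrn2, -0.65 for Ints12, -0.59 for Papola, -0.58 for Wdr33, -0.51 for Ints8, -0.50 for Ints4, -0.48 for Cpsf1, -0.24 for Rbbp6 and -0.16 for Cpsf2, of which the last 2 turned positive under other scalings. It was 0.65 for Ints6, 0.30 for Ints1, 0.26 for Pabpn1, 0.24 for Sympk and 0.24 for Ints3. Not every call held: those of Cpsf1, Ints4, Ints8, Papola, Sympk, Ints3, Rbbp6 and Cpsf2 were lost in some alternative setting. With log2(TPM + 1) in limma 15 members were called, and 44.8% of all genes. The change in mean transcript length, taken the same way, differed by 0.59 for Wdr33, 0.19 for Fip1l1, -0.15 for Papola and 0.12 for Pabpn1 (limma). Cells and tumors differ in labelled RNA type, table and library series as well as in growth in a host, and these cannot be told apart.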

How the results depend on the processing

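In cells, the count of members called was 28 to 33 in each alternative, against 29. Of all genes, 46.4 to 77.7% were called in these cell alternatives, against 76.1%. In tumors it was 3 to 18 with each library left out, against 13, and 0 with tumor libraries 1 and 2 only. Of all genes, 11.8 to 36.2% were called with each tumor library left out, against 26.8%. Same-numbered libraries did not deviate together (correlations at most 0.0016), so the numbers were not taken to pair them. With the replicate block the counts were 29 in cells, 10 in tumors and 18 for the difference, beside 75.3%, 22.3% and 44.8% of all genes. The length readout in cells was called for 0 members with the block, in place of 3. Centred on all genes it was called for 5, and for 2 to 4 with each library left out. These length counts were not set beside the share of all genes called in the same settings.

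The median change of the members in cells was -0.226 with total count scaling, -0.206 with log2(TPM + 1) and -0.209 with log2(TPM + 0.1), and -0.037 to -0.0069 with each library left out. In tumors it was -0.257 and -0.263 with the TPM scales. Span and change in tumors gave a rho of 0.0011 with log2(TPM + 1). In tumors the Cpsf6 to Cpsf7 ratio ranged from -0.053 to 0.249 and Papola to Papolg from -0.127 to 0.019 with each library left out.

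Among members and genes with library values, signs turned for these, where the 3 values are with total counts, log2(TPM + 1) and log2(TPM + 0.1). In cells they were -0.129, -0.270 and -0.275 for Cpsf1, -0.087, -0.157 and -0.162 for Pcf11, -0.075, -0.206 and -0.209 for Rbbp6, and -0.160, -0.279 and -0.287 for Cdk13. Ints10 gave -0.106 and -0.108 with the TPM scales. Of other listed genes, Snrnp70 gave -0.057 and -0.283 and Snrpa -0.031 and -0.164 with total counts and log2(TPM + 1); Ints11, Srrt, Zc3h18, Mtrex and Exosc4 also turned. In tumors the TPM scales gave -0.028 and -0.028 for Ints3, -0.099 and -0.102 for Cdk13 and -0.097 and -0.099 for Ncbp2. The difference between materials became 0.061, 0.112 and 0.103 for Cpsf2, and 0.045 and 0.046 for Rbbp6 with the TPM scales. The causes were not tested.

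With each library left out, fitted changes ranged from -0.00413 to 0.039 for Cdk13 in cells, and in tumors from -0.172 to 0.0020 for Papolg, -0.063 to 0.0079 for Scaf8 and -0.0021 to 0.081 for Ints3, -0.138 to 0.014 for Lsm11 and -0.105 to 0.137 for Ncbp2. Depth limits Cstf2t, which had at most 2 counts in any cell library.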

Other observations

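Of 19 tested genes of the cap-binding complex and the nuclear exosome, the machine that degrades unprotected nuclear RNA, 7 rose and 10 fell in cells and 1 rose and 13 fell in tumors (edgeR, adjusted p under 0.05), while of all genes 37.8% rose and 38.3% fell in cells and 11.9% rose and 14.9% fell in tumors. Of the 7 that rose in cells, Srrt, Zc3h18, Mtrex and Exosc4 turned negative with log2(TPM + 1), at -0.021, -0.20, -0.099 and -0.019, and Ncbp3 lost its call. Ncbp2, a subunit that binds the cap, rose from 72.4, 71.8 and 68.3 CPM to 115, 112 and 122 in cells (log2 fold change 0.71) and was not called in tumors. Exosc1, an exosome cap subunit, fell from 77.3, 79.4 and 79.0 CPM to 46.9, 50.8 and 52.7 in cells and by 0.52 on the log2 scale in tumors. Exosc8, of the exosome ring, fell from 72.2, 73.3 and 73.4 CPM to 35.6, 49.9 and 39.5 in tumors (log2 fold change -0.81, adjusted p = 0.0041, edgeR). Zfc3h1, which links the exosome to polyadenylated nuclear RNA, was called lower in cells at -0.48 and higher in tumors at 0.25.

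Of 5 genes for the 3′ ends of histone pre-mRNA, 1 rose and 1 fell in cells and 2 fell in tumors, beside the same shares of all genes. Slbp, which binds the histone stem-loop, rose from 155, 152 and 149.5 CPM to 209.3, 212 and 224 in cells and fell from 87.1, 71.4 and 78.8 CPM to 54.0, 52.6 and 47.1 in tumors. Casp8ap2 fell from 52.7, 49.1 and 51.0 CPM to 34.2, 32.8 and 31.5 in tumors and was not called in cells. Lsm11, a U7 snRNP protein, fell from 13.0, 14.7 and 15.7 CPM to 7.59, 7.25 and 9.15 in cells. With tumor libraries 1 and 2 only, the tumor calls named here were lost, at -0.77 for Exosc8, -0.51 for Exosc1, 0.24 for Zfc3h1, -0.57 for Slbp and -0.61 for Casp8ap2. The dividing-cell markers fell in the same tumors, and their part in these values was not tested.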
